A study of Tupaia belangeri chinensis with 36 samples.

Results

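The comparison set miRNAs of the testis against miRNAs of the epididymis in male Chinese tree shrews (Tupaia belangeri chinensis), a small mammal related to primates, outside the breeding season. Its members were the small RNA libraries measured in the non-reproductive season (NR): TESTIS-NR 1 and 3 on one side, and CAPUT-NR 1 and 3 with CAUDA-NR 1, 2 and 3 on the other, 7 libraries of the 18 small RNA samples and of 36 samples in the whole series. The caput is the head and the cauda the tail of the epididymis, the duct in which sperm mature and are stored. All animals were sexually mature males of 1.5 to 2 years, collected in mid-December for NR and in mid-April of the next year for the reproductive season (R), with 3 replicates in each tissue and season. The columns deposited for TESTIS-NR 2 and CAPUT-NR 2 were averages rather than measurements (their values matched the rounded mean of replicates 1 and 3 at 100% of entries with a group mean of at least 10 counts) and were left out, so that testis and caput each rest on 2 libraries.

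MicroRNAs are short RNAs cut by Drosha and Dicer from hairpin transcripts. One strand of a hairpin, its 5p or its 3p arm, is loaded into an Argonaute protein and guides it to messenger RNAs, which are then repressed. Many miRNAs mark a cell type: the miR-200 family holds cells in an epithelial state, miR-202 is known from the gonads, the miR-34 and miR-449 family is found in germ cells from meiosis onwards and in multiciliated cells, and miR-1, miR-133 and miR-206 mark muscle. The testis holds germ cells, Sertoli cells and Leydig cells, whereas the epididymal duct is lined by principal and basal epithelial cells and is wrapped in smooth muscle that is thickest in the cauda.

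The 7 libraries held 3548665 to 12781794 counts, with 3914146 and 3548665 in the testis, 11259767 and 7534831 in the caput and 6528407 to 12781794 in the cauda. In each, the 10 most abundant entries took 67.1% to 75.1% of the counts. Of 1210 entries in the table, 491 carry the name of a mouse miRNA and 719 do not, and the mouse-named ones took 90.0% to 98.2% of the counts of a library. Levels below are CPM, counts scaled to the library size, after TMM scaling in edgeR, and a change is the log2 difference of the testis from the mean of caput and cauda, unless a single segment is named. A miRNA is called, and is said to be higher or lower, where the adjusted p of edgeR's quasi-likelihood test (Benjamini-Hochberg over all 518 entries tested) was under 0.05. In whole tissue, fewer cells of a type and less of a miRNA per cell cannot be told apart.

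In all, 172 of 518 entries (33.2%) were called, 90 higher (17.4%) and 82 lower (15.8%) in the testis. Among the 328 mouse-named miRNAs tested, 52 were higher and 74 lower. Among called mouse-named miRNAs with a mean of at least 50 CPM in the higher tissue, the changes ran from miR-202-5p, a gonadal miRNA that was about 505-fold higher in the testis, to miR-200b-3p, an epithelial miRNA that was about 70.9-fold lower. The size of both rested on the testis library used. On the log2 scale the change of miR-202-5p was 8.98; it was 7.60 with TESTIS-NR 1 left out and 9.67 with TESTIS-NR 3 left out. That of miR-200b-3p was -6.15, and became -8.61 and -5.29 in the same runs. Of 83 called miRNAs followed in this way, 25 moved by over 1.5-fold when TESTIS-NR 1 was dropped and 21 when TESTIS-NR 3 was. Dropping CAPUT-NR 1 moved 6. Any other library moved at most 1. The testis libraries lay above all 5 epididymal libraries at 121 entries (23.4%) and below all 5 at 122 (23.6%). The median change over all 518 was -0.03, and with library totals in place of TMM it was 0.17. Leaving out a library changed the number called: with the same 518 entries tested it was 64 without CAUDA-NR 1, 113 without CAUDA-NR 2, 114 without CAUDA-NR 3, 68 without CAPUT-NR 1, 53 without CAPUT-NR 3, 222 without TESTIS-NR 1 and 155 without TESTIS-NR 3. No called entry changed sign in these runs. Of the 172, 40 stayed called without each of the 7 libraries in turn, 27 of them with a mouse name (14 higher and 13 lower in the testis), and these are said below to hold in all 7 runs. Without a filter on low counts 98 entries were called, and 74 passed a test against a log2 change of at least 1.

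**Figure D1:**
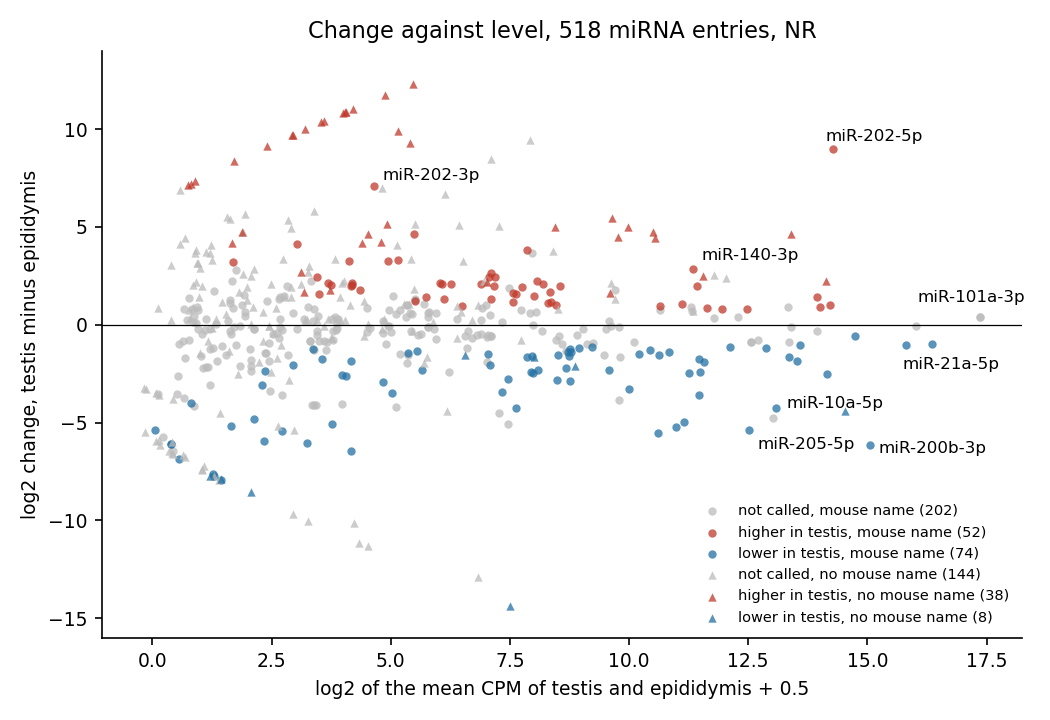
Log2 change of the testis from the epididymis (vertical axis) against the log2 of the mean CPM of both (horizontal axis) for the 518 entries tested; red and blue points were called, and triangles have no mouse name. The 172 called entries lie at all levels, with miR-202-5p at 8.98 and miR-200b-3p at -6.15.

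Among the most abundant miRNAs, miR-202-5p (1 of the 5 highest in the testis) was far lower in the epididymis, and miR-200b-3p far lower in the testis. Several others were shared by both tissues. Entries miR-101a-3p and miR-101c took the highest levels in each; their counts over the 2 testis libraries were 1543453 and 1543310, so near to equal that the reads may have been counted for both. For miR-101a-3p the testis had 187976 and 196358 CPM, the caput 156098 and 167826 and the cauda 118047, 177190 and 99984. Both testis libraries were above all 5 others, yet the change of 0.40 (SE 0.27) did not pass (adjusted p = 0.295). A broadly expressed miRNA of stromal and immune cells, miR-21a-5p, stood at 65762 and 47205 CPM in the testis against 87116 to 132060 over the epididymal libraries and was lower in the testis by 1.97-fold (log2 -0.98, SE 0.28, adjusted p = 0.0456). The widely expressed miR-125b-5p was also lower, with 29204 and 45010.3 CPM in the testis, 107073 and 79686 in the caput and 61147, 61211 and 62113 in the cauda (log2 -1.03, SE 0.26, adjusted p = 0.0327). For miR-29c-3p, of a family that represses extracellular matrix transcripts, the tissues overlapped, with 78757 and 47092 CPM in the testis and 40249 to 110451 in the epididymis. The calls of miR-21a-5p and miR-125b-5p each depended on single libraries: their adjusted p was 0.131 without TESTIS-NR 3 for miR-21a-5p and 0.319 without CAPUT-NR 1 for miR-125b-5p, and both were over 0.05 without any one of the cauda and caput libraries.

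The gonadal list held the largest change of a mouse-named miRNA in favour of the testis. Of 11 tested members of the list, 4 were higher and 2 lower (54.5% called, beside 33.2% of all entries). Their median change was 0.81 beside -0.03 over all entries. The higher ones were both arms of miR-202 and of miR-140, and the lower ones miR-191-5p and miR-204-5p. The call of miR-204-5p was lost without any one epididymal library or TESTIS-NR 3. The 5p arm of miR-202, a miRNA known from Sertoli and other gonadal somatic cells, stood at 64452 and 15296 CPM in the testis, 465 and 170.1 in the caput and 7.61, 23.0 and 28.2 in the cauda. Both testis libraries were far above every epididymal one, TESTIS-NR 1 was the higher of the pair, and both caput libraries were above all 3 of the cauda. The change was 8.98 (SE 0.92, adjusted p = 0.0075), made up of 6.97 (SE 1.20) against the caput and 10.99 (SE 1.16) against the cauda. Its partner arm miR-202-3p was scarce, at 38.8 and 59.0 CPM in the testis and 0 to 1.40 in the epididymis, and was higher in the testis (log2 7.09, SE 1.01, adjusted p = 0.0114). This arm passed the filter only through the testis, which fixed its direction, so no lean is read from it. The arms of miR-140, a miRNA of cartilage and of the developing testis, gave the most even difference: miR-140-3p stood at 4765 and 4384 CPM in the testis, 693 and 540.3 in the caput and 684, 639 and 578 in the cauda. It was 7.32-fold higher in the testis (log2 2.87, SE 0.19, adjusted p = 0.00415), and the difference was nearly the same against caput (2.89) and cauda (2.85). Its other arm, miR-140-5p, had 312 and 179 CPM in the testis and 37.9 to 61.4 in the epididymis (log2 2.41, SE 0.31, adjusted p = 0.0114). The calls of miR-202-5p, miR-140-3p and miR-140-5p held in all 7 runs, and that of miR-202-3p was lost without CAPUT-NR 3 (adjusted p = 0.0557).

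**Figure D2:**
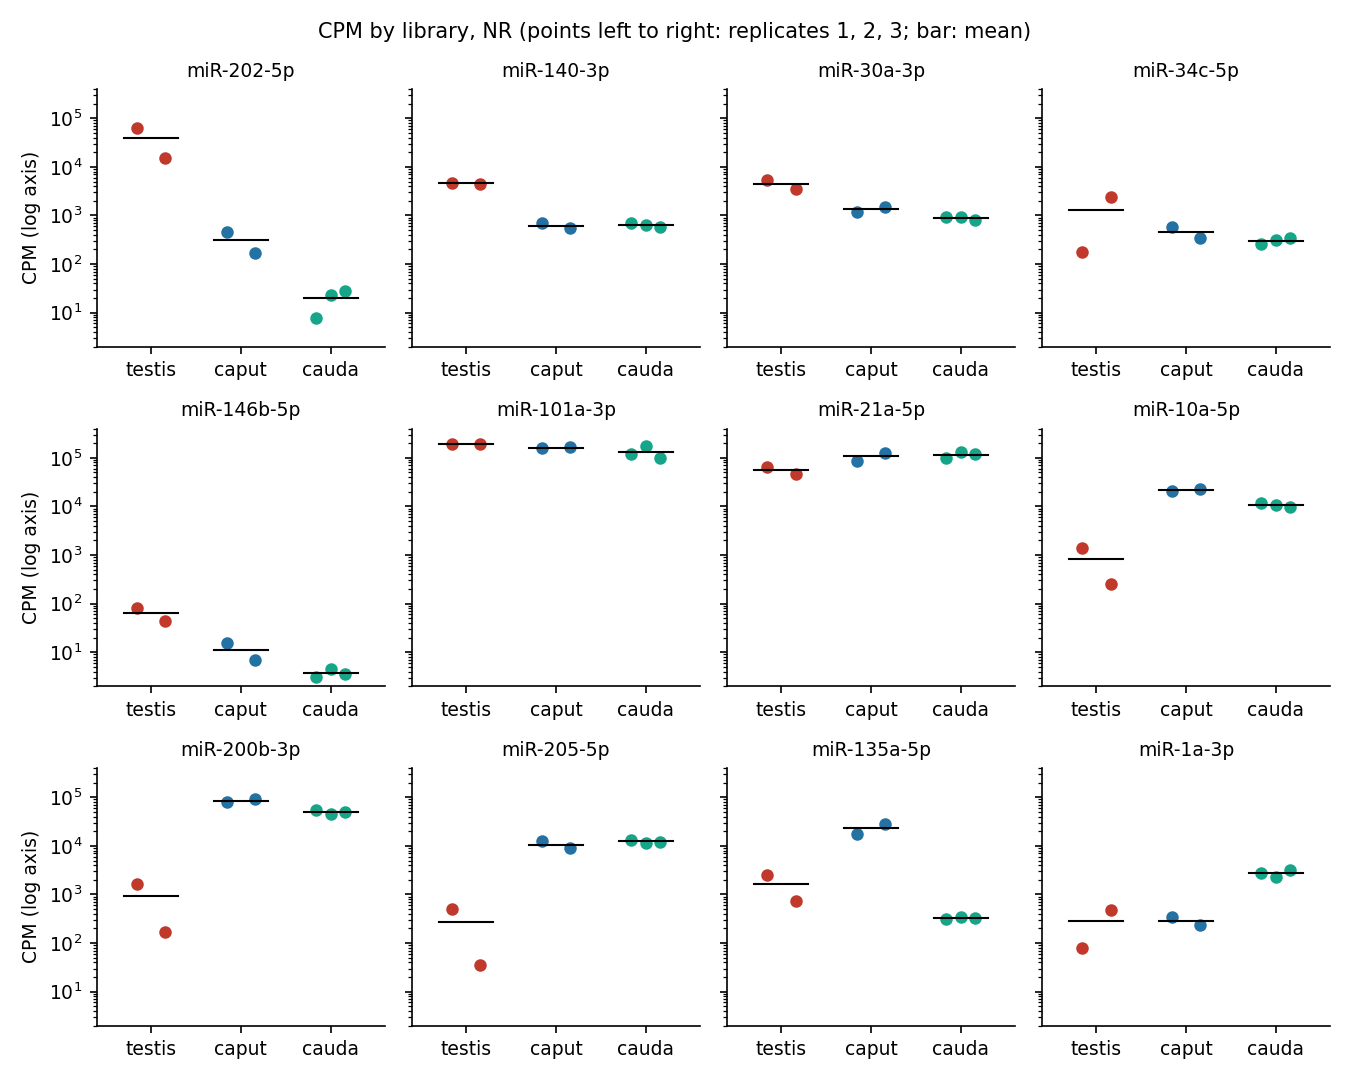
CPM on a log axis for 12 miRNAs in the 7 libraries; each point is a library, red in testis, blue in caput and green in cauda, and the bar is the mean of the tissue. The testis stands above both segments for miR-202-5p and miR-140-3p, below both for miR-200b-3p, miR-205-5p and miR-10a-5p, and between them for miR-135a-5p.

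The miR-34 and miR-449 family, which marks germ cells from meiosis onwards and the multiciliated cells of the efferent ducts, was higher in the testis in 2 of 6 members tested, with a median change of 1.93; 33.3% of it was called, a share near the 33.2% of all entries. The p53-responsive miR-34a-5p was the steadier one, at 105 and 112 CPM in the testis, 28.4 and 19.4 in the caput and 26.0, 30.1 and 27.7 in the cauda (log2 2.07, SE 0.29, adjusted p = 0.0114), and its call held in all 7 runs. Its relative miR-34b-5p stood at 86.9 and 778 CPM in the testis and 14.4 to 46.2 in the epididymis (log2 3.80, SE 0.77, adjusted p = 0.0202), a call lost without CAUDA-NR 1 (0.0542), CAPUT-NR 1 (0.0748), CAPUT-NR 3 (0.0755) or TESTIS-NR 3 (0.063). The most abundant member, miR-34c-5p, did not pass (log2 1.79, SE 0.84, adjusted p = 0.164). It stood at 175 and 2410.0 CPM in the testis, 585 and 343 in the caput and 257, 306 and 342 in the cauda, so that TESTIS-NR 1 was below all 5 epididymal libraries and TESTIS-NR 3 above all 5. The cilia-related miR-449a-5p stood at 71.3 and 849 CPM in the testis, 32.5 and 32.2 in the caput and 0, 0.72 and 125 in the cauda (log2 3.64, SE 2.23, adjusted p = 0.261). TESTIS-NR 3 was far above the rest, CAUDA-NR 3 was above TESTIS-NR 1, and the other cauda libraries held almost none. In the reproductive season all 3 testis libraries were high for both. Scaled together with NR in 1 fit of 16 libraries, they had 2239, 2858 and 3266 CPM of miR-34c-5p and 1395, 1881 and 1477 of miR-449a-5p. On that scale the NR testis libraries had 173 and 2339 CPM of miR-34c-5p and 70.6 and 824 of miR-449a-5p. In the epididymal R libraries miR-34c-5p ranged over 539, 635 and 683 in the caput and 681, 344 and 519 in the cauda. The X-linked miR-506 family, another group known from the testis, matched no entry and was not analysed here.

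Many miRNAs of the imprinted DLK1-DIO3 locus, a large cluster expressed from the maternal chromosome, were higher in the testis. Of 32 tested members of 53 listed in the table, 17 were higher, 2 were lower and 13 were not called (59.4% called, beside 33.2% of all entries). A positive change was seen at 28 of the 32, beside 258 of all 518 entries, and the median of the list was 1.27. The most abundant in the testis, miR-411-5p, stood at 373 and 372 CPM in the testis, 93.8 and 99.1 in the caput and 200.1, 181 and 183 in the cauda, without overlap (log2 1.47, SE 0.21, adjusted p = 0.0114). Its neighbour miR-379-5p had 205 and 239, 34.3 and 40.3 and 91.1, 97.1 and 75.8 CPM in the same order (log2 1.95, SE 0.26, adjusted p = 0.0114). For both, the caput was the lowest tissue and the cauda lay between. The list's median change was 1.84 against the caput and 0.72 against the cauda, comparisons that share the testis libraries. Larger changes on fewer counts were those of miR-323-3p (36.5 and 71.6 CPM in the testis and 3.56 to 13.4 in the epididymis, log2 3.27, SE 0.48, adjusted p = 0.0118), of miR-382-5p (145 and 98.6 and 15.2 to 52.1, log2 2.08, SE 0.33, adjusted p = 0.013) and of miR-127-5p, an arm of the hairpin antisense to Rtl1 (26.8 and 28.7 and 5.78 to 9.41, log2 1.97, SE 0.31, adjusted p = 0.013). The 2 lower entries, miR-299a-5p and miR-299b-5p, had equal changes of -6.11, no count in either testis library and at most 3.02 CPM in the epididymis. They passed the filter only through the epididymis, which fixed their direction. Their calls were lost without any single library (adjusted p up to 0.105, without CAUDA-NR 1). The calls of miR-411-5p, miR-379-5p and miR-382-5p held in all 7 runs, whereas without CAPUT-NR 3 miR-323-3p had an adjusted p of 0.0544 and miR-127-5p of 0.0505.

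Clusters tied to proliferation held some miRNAs that were higher in the testis. In the miR-17-92 and miR-106b-25 clusters, targets of MYC and E2F, 5 of 17 tested members were higher and none lower (29.4% called, beside 33.2% of all entries), with a median of 0.92. The abundant miR-19b-3p stood at 2681 and 3224 CPM in the testis, 1207 and 1287 in the caput and 1357, 1984 and 1556 in the cauda (log2 1.05, SE 0.22, adjusted p = 0.0216). Likewise miR-19a-3p stood at 448 and 537, 127 and 161 and 119, 216 and 163 (log2 1.67, SE 0.30, adjusted p = 0.016). The passenger arm miR-17-3p, at 28.0 and 29.2 CPM in the testis and 4.52 to 9.45 in the epididymis, held in all 7 runs (log2 2.14, SE 0.37, adjusted p = 0.016). In the miR-15 and miR-16 list, whose members restrain the cell cycle, 1 of 9 was higher (11.1% called), namely miR-16-1-3p, at 60.1 and 153 CPM in the testis and 14.6 to 30.5 in the epididymis (log2 2.15, SE 0.47, adjusted p = 0.0233). Without CAPUT-NR 3 the adjusted p was 0.0741 for miR-19b-3p, 0.0566 for miR-19a-3p and 0.0711 for miR-16-1-3p. The calls of miR-19b-3p were also lost without CAUDA-NR 1, CAUDA-NR 3 or CAPUT-NR 1 (0.0594, 0.0507 and 0.0641), of miR-19a-3p without CAPUT-NR 1 (0.0553) and of miR-16-1-3p without CAUDA-NR 1, CAPUT-NR 1 or TESTIS-NR 3 (0.0603, 0.0736 and 0.0758).

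Several single miRNAs outside these clusters were higher. The 3p arm of miR-30a, of a broadly expressed family, stood at 5250.4 and 3492 CPM in the testis, 1189.6 and 1472 in the caput and 918, 951 and 816 in the cauda (log2 2.00, SE 0.23, adjusted p = 0.00995). The NF-kappa-B-induced miR-146b-5p had 82.3 and 44.1 CPM in the testis, 15.2 and 7.00 in the caput and 3.15, 4.50 and 3.51 in the cauda (log2 3.29, SE 0.46, adjusted p = 0.0114). It was the only one of 7 tested leukocyte-list members that was higher. For miR-181a-1-3p the testis had 316 and 551 CPM and the epididymis 49.8 to 181 (log2 2.21, SE 0.35, adjusted p = 0.013). These 3 calls held in all 7 runs. The miR-181 family, known from lymphocytes and other cells, was split. Of 8 tested members 3 were higher and 3 lower, beside 17.4% and 15.8% of all entries. The lower ones were both arms of miR-181c and miR-181d-5p. Of these, miR-181c-3p stood at 5.01 and 5.45 CPM in the testis and 46.5 to 68.7 in the epididymis (log2 -3.48, SE 0.38, adjusted p = 0.00841). Its partner miR-181c-5p stood at 101 and 52.5 and 365 to 509.9 (log2 -2.47, SE 0.38, adjusted p = 0.013). For miR-181d-5p the values were 181 and 104 and 519 to 793 (log2 -2.22, SE 0.32, adjusted p = 0.0114). All 3 held in all 7 runs. Both arms of miR-31, an epithelial miRNA, were higher in the testis, miR-31-5p with 425 and 256 CPM against 53.8 to 109 (log2 1.93, SE 0.37, adjusted p = 0.0179, and 0.0533 without CAPUT-NR 3). The scarcer miR-31-3p stood at 21.5 and 7.43 CPM against 0.24 to 2.28 (log2 4.11, SE 0.94, adjusted p = 0.025). It passed the filter only through the testis, which fixed its direction. Its call was lost without CAUDA-NR 3, CAPUT-NR 1, CAPUT-NR 3 or TESTIS-NR 1, with an adjusted p up to 0.0904 without TESTIS-NR 1.

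Some miRNAs that are often used to normalize other miRNAs differed between the tissues. For miR-103-3p the testis had 17586 and 24594 CPM, the caput 14243 and 15213 and the cauda 8228, 8908 and 8966 (log2 0.90, SE 0.20, adjusted p = 0.0235), and miR-107-3p differed likewise, with 545 and 389 CPM against 157 to 318 (log2 1.00, SE 0.24, adjusted p = 0.0278). In the other direction, miR-191-5p had 299.9 and 187 CPM in the testis and 504 to 707 in the epididymis (log2 -1.38, SE 0.30, adjusted p = 0.0233). All 3 calls were lost without single libraries, the highest adjusted p being 0.079 without CAPUT-NR 3 for miR-103-3p, 0.0795 without CAUDA-NR 1 for miR-107-3p and 0.061 without CAUDA-NR 1 for miR-191-5p.

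The hepatocyte miRNA miR-122-5p was counted in both testis libraries, at 11.8 and 159 CPM against 2.49 to 4.38 in the epididymis (log2 4.62, SE 0.89, adjusted p = 0.0179). Nearly all of its testis signal came from TESTIS-NR 3: without that library the change was 1.76, and without TESTIS-NR 1 it was 5.51. The call was lost without CAUDA-NR 1 (0.0528), CAPUT-NR 1 (0.0746) or CAPUT-NR 3 (0.0702).

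Among called mouse-named miRNAs with a mean of at least 50 CPM in the higher tissue, the 5 largest differences in favour of the epididymis were those of 4 arms of the miR-200 family and of miR-205-5p. Some scarcer miRNAs, and 1 entry without a mouse name at 172 to 506 CPM in the epididymis, had no count in either testis library. Their fitted values were larger and depend on the prior count. The miR-200 family keeps the epithelial state by repressing ZEB1 and ZEB2. All 10 of its tested arms lay below all 5 epididymal libraries in both testis libraries, as did 23.6% of all entries. Of the 10 arms, 6 were called lower, beside 15.8% of all entries. Of the 6, miR-200c-5p and miR-429-5p were near 0 in the testis and passed the filter only through the epididymis, which fixed their direction. None of the 10 arms was higher, and their median change was -5.17. Together they summed to 3487 and 248 CPM in the testis, 117429 and 136490 in the caput and 73869, 64465 and 63937 in the cauda. The dominant arm, miR-200b-3p, stood at 1664 and 166 CPM in the testis, 78296 and 92403 in the caput and 53573, 45939 and 48643 in the cauda. Both testis libraries were low, TESTIS-NR 3 far lower than TESTIS-NR 1, and the caput was above the cauda. The change was -6.15 (SE 1.11, adjusted p = 0.016). The related miR-200c-3p stood at 109 and 20.3 CPM against 2172 to 4621 (log2 -5.53, SE 0.86, adjusted p = 0.013), and both calls held in all 7 runs. For miR-141-3p (log2 -4.98, SE 1.25, adjusted p = 0.0313) and miR-429-3p (log2 -5.25, SE 1.41, adjusted p = 0.0388) the call was lost without any one of the epididymal libraries, with adjusted p up to 0.0656 for miR-141-3p without CAUDA-NR 1 and 0.0795 for miR-429-3p without CAPUT-NR 1. The abundant miR-200a-3p fell just short (log2 -4.76, SE 1.44, adjusted p = 0.051), with 1033 and 30.0 CPM in the testis and 6998 to 23931 in the epididymis.

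Markers of basal and stratified epithelium followed the same direction, with miR-205-5p and miR-203-3p both lower. All 3 tested arms were called lower, beside 15.8% of all entries, but for miR-205-3p the filter fixed the direction. For miR-205-5p the testis had 511 and 35.7 CPM, the caput 12388 and 8927 and the cauda 13386, 11652 and 12103 (log2 -5.39, SE 1.20, adjusted p = 0.0241). The skin miRNA miR-203-3p had 258 and 99.1, 2816 and 2128 and 1386, 1538 and 888 CPM in the same order (log2 -3.31, SE 0.54, adjusted p = 0.0138). The passenger arm miR-205-3p had no count in the testis and 2.45 to 8.20 CPM in the epididymis. Taking 3 counts over the testis libraries as the limit that a count of 0 allows, it was at least 11.8-fold lower in the testis. It passed the filter only through the epididymis, which fixed its direction, so no lean is read from it. In the cluster of miR-96, miR-182 and miR-183, expressed in sensory and other epithelia, 2 of 3 tested members were lower (15.8% of all entries). They were miR-182-5p, at 746 and 111 CPM against 3733 to 5919.9 (log2 -3.60, SE 0.83, adjusted p = 0.0254), and miR-183-5p, at 45.8 and 8.18 against 258 to 365 (log2 -3.44, SE 0.78, adjusted p = 0.0246). The calls of miR-203-3p and miR-205-3p held in all 7 runs, that of miR-205-5p was lost without CAUDA-NR 1 (0.0554), CAPUT-NR 1 (0.0592) or CAPUT-NR 3 (0.0566), and those of miR-182-5p and miR-183-5p without those 3 or CAUDA-NR 3, with adjusted p up to 0.0622 without CAPUT-NR 1.

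The miR-10 and miR-196 genes lie inside the Hox clusters, which set position along the body axis and along the duct. Of 8 tested arms, 6 were lower in the testis, beside 15.8% of all entries, and none higher, with a median change of -2.66. The testis had 1382 and 255 CPM of miR-10a-5p, the caput 21138 and 23140.2 and the cauda 11911, 10697 and 9837 (log2 -4.24, SE 0.77, adjusted p = 0.016). For miR-10b-5p the values were 6675 and 3652, 44352 and 39996 and 23538, 21651 and 15424 CPM (log2 -2.50, SE 0.36, adjusted p = 0.0114). For both the caput was the highest tissue, and both calls held in all 7 runs, as did that of miR-10b-3p (log2 -2.81, SE 0.41, adjusted p = 0.0114). The miR-196 arms were ordered otherwise: miR-196a-5p had 1516 and 425 CPM in the testis, 1759 and 1332 in the caput and 7675, 10965 and 7639 in the cauda, so that the cauda was far the highest and testis and caput overlapped (change against both segments -1.92, SE 0.56, adjusted p = 0.0474, and over 0.05 without any one epididymal library, up to 0.112 without CAPUT-NR 1).

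**Figure D3:**
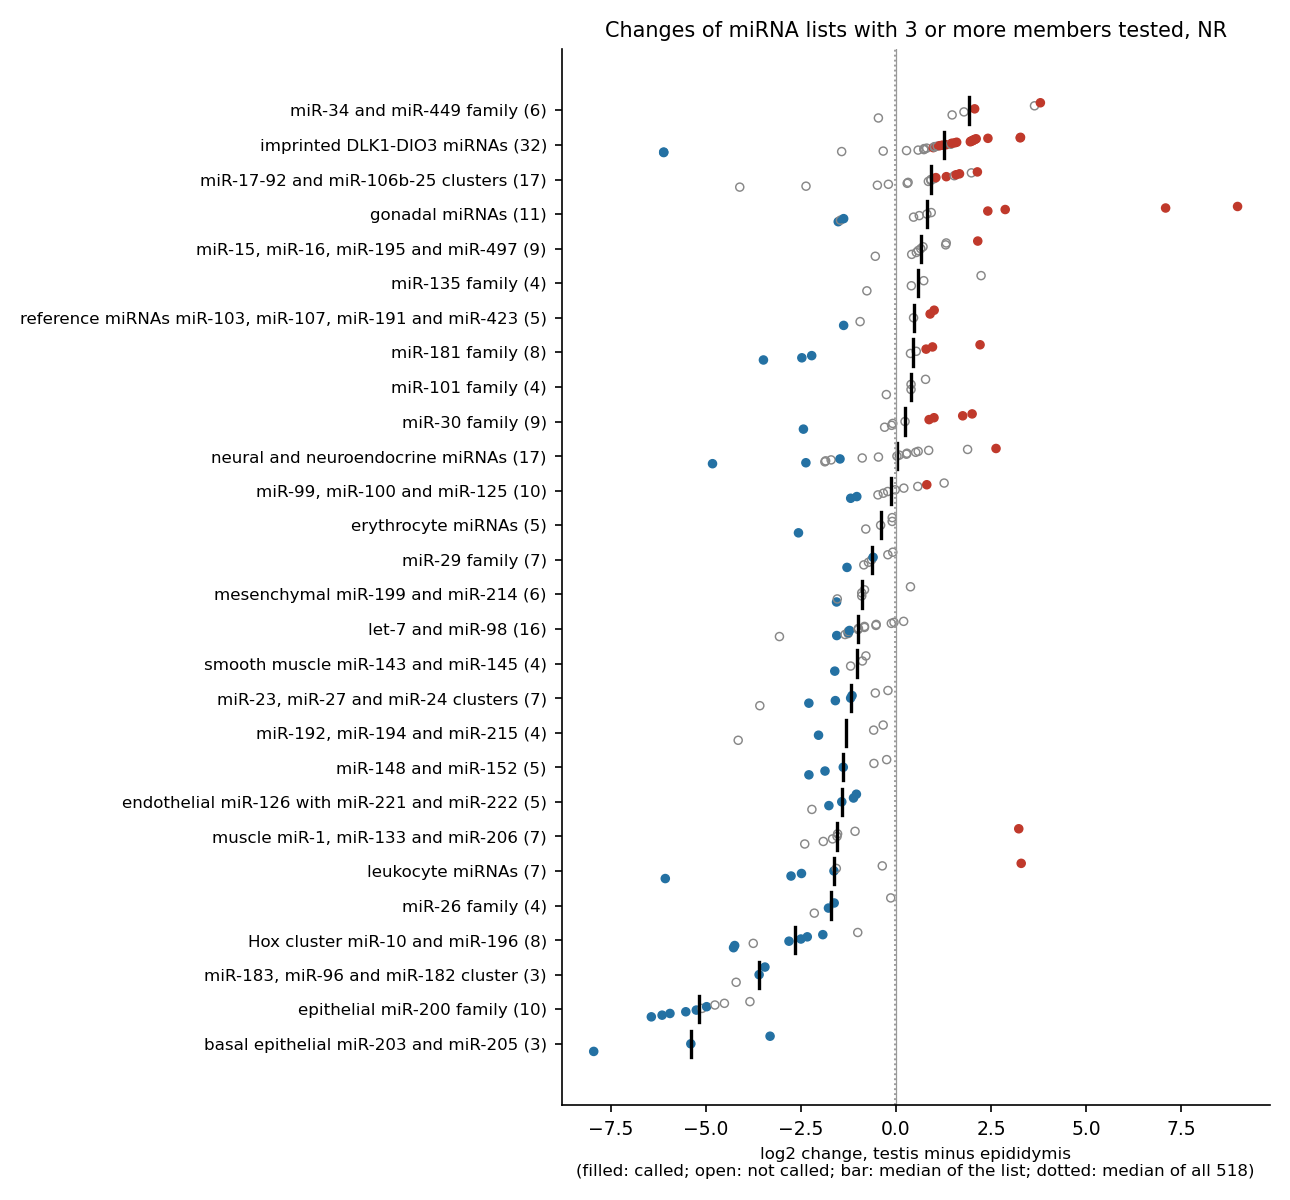
Log2 changes of the testis from the epididymis (horizontal axis) for the tested members of each list with 3 or more of them; numbers in brackets give how many, filled points were called, bars are medians and the dotted line is the median of all 518 entries. The epithelial lists sit lowest, with medians of -5.39 and -5.17, and the miR-34 and miR-449 family highest, at 1.93.

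In the lists for blood, vessels and stroma the share called lower varied, beside 15.8% of all entries. In the leukocyte list 4 of 7 were lower and miR-146b-5p higher. Of the lower ones, miR-150-5p, a lymphocyte miRNA, had 0 and 0.50 CPM in the testis and 15.2 to 23.0 in the epididymis (log2 -6.06, SE 1.10, adjusted p = 0.016). With almost no testis counts it passed the filter only through the epididymis, which fixed its direction, so no lean is read from it. Next, miR-155-5p, induced in activated leukocytes, had 143 and 84.5 and 251 to 475 (log2 -1.63, SE 0.40, adjusted p = 0.0299). The third, miR-142a-5p, found in all blood lineages, had 66.3 and 22.8 and 175 to 573 (log2 -2.76, SE 0.73, adjusted p = 0.0371). In the endothelial list 4 of 5 were lower, among them miR-126a-3p, with 3136 and 2369 CPM in the testis, 5348 and 4237 in the caput and 7894, 7646 and 6752 in the cauda (log2 -1.12, SE 0.23, adjusted p = 0.0202). The red cell miRNA miR-451a had 6.01 and 2.73 CPM against 19.9 to 33.6 (log2 -2.56, SE 0.53, adjusted p = 0.0202), the one called member of 5 (20.0%). The mesenchymal miR-199b-5p had 209 and 160.1 CPM against 443 to 713 (log2 -1.56, SE 0.31, adjusted p = 0.0201), the one called member of 6 (16.7%), and miR-199a-3p, with counts identical to those of miR-199b-3p, did not pass (adjusted p = 0.0553). Each of these calls was lost without at least CAPUT-NR 1, with an adjusted p there of 0.0582 for miR-150-5p, 0.111 for miR-155-5p, 0.0904 for miR-142a-5p, 0.0748 for miR-126a-3p, 0.0589 for miR-451a and 0.0618 for miR-199b-5p. The other libraries whose removal ended at least 1 of these calls were CAUDA-NR 1, 2 and 3, CAPUT-NR 3 and TESTIS-NR 3.

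Among widely expressed families, the let-7 family, which builds up as cells differentiate, had 3 of 16 tested members lower (18.8%) and none higher, a share near the 15.8% of all entries called lower. The most abundant was let-7f-5p, at 995 and 601 CPM in the testis and 2048 to 2576 in the epididymis (log2 -1.56, SE 0.29, adjusted p = 0.0161). In the miR-23, miR-27 and miR-24 clusters 4 of 7 were lower, with miR-27b-3p at 5483 and 3588 CPM against 9496 to 11413 (log2 -1.19, SE 0.24, adjusted p = 0.0201). The miR-26 family had 2 of 4 lower, led in level by miR-26a-5p, with 7173 and 2892 CPM against 10425 to 22414 (log2 -1.62, SE 0.45, adjusted p = 0.0415). The hypoxia-induced miR-210-3p was lower as well, with 102 and 98.6 CPM against 416 to 1355 (log2 -2.88, SE 0.52, adjusted p = 0.016). Without CAUDA-NR 1 the adjusted p was 0.0528 for let-7f-5p, 0.0554 for miR-27b-3p and 0.0847 for miR-26a-5p, and without TESTIS-NR 3 it was 0.0517 for miR-210-3p. Further losses were those of miR-27b-3p without CAUDA-NR 2, CAPUT-NR 1 or CAPUT-NR 3 and of miR-26a-5p without any other library but TESTIS-NR 1, the highest adjusted p being 0.102 for miR-26a-5p without CAPUT-NR 1.

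A further 24 called miRNAs with a mouse name were in no list, and 5 of them are named here after their values were seen. Higher in the testis were miR-542-3p, at 28065 and 17933 CPM against 5149 to 10435 (log2 1.43, SE 0.32, adjusted p = 0.0244), miR-532-5p, at 574 and 355 against 70.3 to 181 (log2 2.07, SE 0.29, adjusted p = 0.0114), and miR-338-3p, at 510.4 and 634 against 62.6 and 79.8 in the caput and 408, 246 and 224 in the cauda (log2 1.99, SE 0.32, adjusted p = 0.013). Lower were miR-361-5p, at 94.6 and 62.9 CPM against 377 to 463 (log2 -2.39, SE 0.30, adjusted p = 0.0112), and miR-335-5p, encoded in the imprinted Mest gene, at 8.51 and 4.21 against 39.6 to 60.2 (log2 -2.95, SE 0.47, adjusted p = 0.013). None of the 5 overlapped between the tissues. All but miR-542-3p held in all 7 runs, and its call was lost without CAUDA-NR 1, CAPUT-NR 1, CAPUT-NR 3 or TESTIS-NR 1 (adjusted p up to 0.0761, without TESTIS-NR 1).

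Against single segments, 101 entries were called for testis and caput (19.5%; 45 higher, 8.69%, and 56 lower, 10.8%) and 161 for testis and cauda (31.1%; 78 higher, 15.1%, and 83 lower, 16%). With library totals in place of TMM the caput split became 65 higher and 42 lower. Both comparisons use the same testis libraries, so their values are given side by side. With the same 518 entries and without CAUDA-NR 1, edgeR called 0 entries in either comparison, with 175 (caput) and 180 (cauda) at an unadjusted p under 0.05. For the caput, 3 were called without CAPUT-NR 1, 0 without CAPUT-NR 3 (150 at an unadjusted p under 0.05), 53 without CAUDA-NR 2, 52 without CAUDA-NR 3 and 185 without TESTIS-NR 1. For the cauda, 37 were called without CAUDA-NR 2 and 76 without CAUDA-NR 3. DESeq2 on all 7 libraries called 200 for the caput and 233 for the cauda.

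Where the segments differed from each other, the testis could lie between them. Without CAUDA-NR 1 edgeR called 0 entries against either segment, so each single-segment call given below was lost in that run. The epithelial miR-135a-5p stood at 17858 and 28265 CPM in the caput, 2509 and 740.4 in the testis and 314, 347 and 331 in the cauda. The 3 tissues did not overlap. The testis was lower than the caput (log2 -3.83, SE 0.64, adjusted p = 0.0206) and higher than the cauda (log2 2.30, SE 0.52, adjusted p = 0.0266), and the change from their mean, -0.76, was not called (adjusted p = 0.286). For miR-135b-5p the caput had 1508 and 4877 CPM, the testis 2082 and 869 and the cauda 178, 239 and 328, and only the difference from the cauda passed (log2 2.57, SE 0.63, adjusted p = 0.0315; against the caput -1.11, adjusted p = 0.305). The gut and kidney miRNA miR-194-5p was high in the caput alone, with 579 and 294 CPM there, 21.3 and 42.4 in the testis and 43.3, 29.8 and 44.0 in the cauda. Its difference from the caput was -3.78 (SE 0.58, adjusted p = 0.0206) and that from the cauda -0.29 (SE 0.48, adjusted p = 0.676). The abundant miR-148a-3p, which targets DNA methyltransferase transcripts among others, stood at 28995 and 32974 CPM in the caput, 5633 and 2825 in the testis and 8516, 6898 and 7588 in the cauda, with differences of -2.87 (SE 0.39, adjusted p = 0.0206) and -0.86 (SE 0.34, adjusted p = 0.107).

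The muscle list was highest in sum in the cauda, and its median change was -1.55. Against both segments 1 of its 7 tested members (14.3%) was called higher in the testis, beside 17.4% of all entries, and none lower. That member was miR-499-5p, encoded in a myosin gene, which was scarce everywhere, at 3.75 and 6.19 CPM in the testis and 0.35 to 0.76 in the epididymis (log2 3.23, SE 0.66, adjusted p = 0.0202; 0.075 without TESTIS-NR 3, and also lost without CAUDA-NR 1, CAPUT-NR 1 or CAPUT-NR 3). As miR-499-5p passed the filter only through the testis, its direction was fixed and no lean is read from it. The list, which holds miR-1, miR-133, miR-206 and relatives, summed to 5846, 4439 and 6712 CPM in the cauda, 584 and 483 in the caput and 169 and 933 in the testis. For miR-1a-3p the cauda had 2746, 2309 and 3168 CPM, the caput 338 and 241 and the testis 78.8 and 482; the testis was lower than the cauda (log2 -3.29, SE 0.82, adjusted p = 0.0315), overlapped with the caput (log2 -0.05, SE 0.78) and was not called against both. The smooth muscle miRNA miR-143-3p gave the same picture at higher levels, with 18569.5, 24656 and 23611 CPM in the cauda, 5909.8 and 7079 in the caput and 8255 and 4793 in the testis (against the cauda -1.77, SE 0.33, adjusted p = 0.0202; against the caput 0.01, SE 0.33). Its cluster partner miR-145a-5p was the one called member of the smooth muscle list against both segments (log2 -1.61, SE 0.37, adjusted p = 0.0246). The call of miR-145a-5p was lost without any one of the epididymal libraries, with adjusted p up to 0.0719 without CAPUT-NR 1.

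Both arms are cut from the same hairpin, and one of them is usually kept over the other. At 38 hairpins both arms had a mean of at least 10 CPM over the 7 libraries. In 35 of them both arms changed in the same direction between the tissues. In 12 the log2 ratio of 5p to 3p did not overlap between testis and epididymal libraries, and the group means differed by 1 or more in 7 of these 12. Both miR-199a and miR-199b were among the 12, and miR-199a also among the 7. Their 3p counts were identical, so these ratios cannot be assigned to either hairpin. Ratios were taken after adding 0.5 CPM to each arm. With 0.05 CPM, chosen after the data were seen, 11 of the 12 still did not overlap. The exception was miR-202, whose 3p arm was at 0 in part of the cauda. At miR-30d, where neither arm was under 62.9 CPM in any library, the ratio was 1.95 and 3.49 in the testis and 5.30 and 5.31 and 5.76, 5.23 and 6.15 in caput and cauda. There miR-30d-5p was lower in the testis by 5.40-fold (log2 -2.43, SE 0.39, adjusted p = 0.0131; 0.0622 without CAPUT-NR 1 and 0.0566 without CAPUT-NR 3), whereas miR-30d-3p changed by 0.24. At miR-200a the ratio was -2.30 and -1.62 in the testis, -3.84 and -3.02 in the caput and -2.99, -3.43 and -2.62 in the cauda. The 3p arm was in excess in every library and least so in the testis. At miR-34b, miR-378a and miR-361 the rarer arm was at 0 to 0.75 CPM in a testis library, and their ratios are not given. The more abundant arm was the same in the means of both tissues at all but 1 hairpin, miR-335, where testis and epididymal ratios overlapped. These ratios are described without a test.

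Of 190 tested entries without a mouse name, 38 were higher in the testis and 8 lower, 24.2% beside 38.4% of mouse-named miRNAs. Of the 38, 16 had no count in any of the 5 epididymal libraries, and 9 had a testis mean of at least 1000 CPM. No mouse-named miRNA that was higher in the testis had 0 counts in all epididymal libraries, whereas 7 mouse-named miRNAs and 4 of the other entries that were lower had 0 counts in both testis libraries. An entry at 0 in one tissue passed the filter only through the other, which fixed its direction, so no lean is read from these counts. The table gives no sequence for these entries, and they are not named here.

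The 2 testis libraries differed from each other more than other replicates did. Among the 206 mouse-named miRNAs with a mean of at least 10 CPM in the pair, 30 (14.6%) differed by 4-fold or more, 14 higher and 16 lower in TESTIS-NR 3, beside 0 to 3 in any pair of replicates of caput or cauda. Ratios below were taken after adding 1 CPM. All 10 miR-200 arms were lower in TESTIS-NR 3, with a median log2 ratio of TESTIS-NR 3 to TESTIS-NR 1 of -4.14, and all 6 members of the miR-34 and miR-449 family were higher there, with a median of 3.35. The muscle list had a median of 2.29 (5 higher and 2 lower in TESTIS-NR 3), and the DLK1-DIO3 list one of -0.01. The part of these differences in the results above was not tested; at all 10 miR-200 arms both testis libraries were below every epididymal one.

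**Figure D4:**
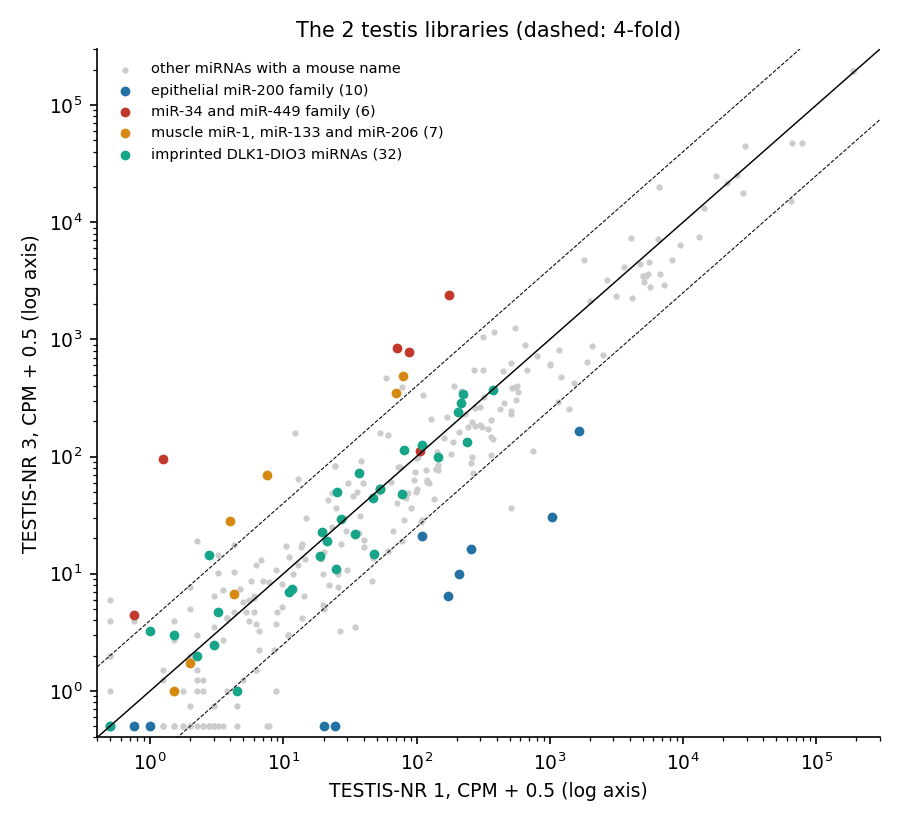
CPM of each tested mouse-named miRNA in TESTIS-NR 3 (vertical, log axis) against TESTIS-NR 1 (horizontal, log axis), with the line of equality and dashed lines at 4-fold; colours mark 4 lists. The miR-200 family (blue) lies below the line and the miR-34 and miR-449 family (red) above it, while the DLK1-DIO3 miRNAs lie around it.

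The same contrast in the reproductive season, from 9 libraries that share none with NR, gave the same sign at 158 of the 172 called entries (91.9%), at 123 of the 126 called miRNAs with a mouse name (97.6%) and at 411 of all 518 tested (79.3%). In R, miR-202-5p stood at 18368, 16343 and 53504 CPM in the testis, 36.5, 9.58 and 483 in the caput and 24.8, 9.09 and 34.5 in the cauda, a change of 8.86 beside 8.87 for NR in the joint fit of 16 libraries. For miR-200b-3p the R testis libraries had 993, 338 and 56.6 CPM and the change was -7.30 beside -6.22. The 3 called miRNAs with the opposite sign in R were miR-100-5p, which lies in a cluster with a let-7 gene, miR-103-3p and the neural miR-153-3p. In NR, miR-153-3p had 1.25 and 0.50 CPM in the testis and passed the filter only through the epididymis, which fixed its direction. For miR-100-5p, the NR testis had 5569 and 4564 CPM against 2455 to 3264 (log2 0.81, SE 0.21, adjusted p = 0.0336). This call was lost without CAUDA-NR 1, 2 or 3, CAPUT-NR 3 or TESTIS-NR 1, with adjusted p up to 0.0785 without CAUDA-NR 1. Scaled in the joint fit, the NR values were 5511 and 4430 against 2285 to 3585. On that scale the R testis had 2651, 2288 and 2034, the R caput 2753, 2049 and 2334 and the R cauda 3087, 3533 and 3146.

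A difference between the seasons in the size of the change was called at 1 of 784 entries (0.128%), an entry without a mouse name and with at most 7.18 CPM, and 79 entries had an unadjusted p under 0.05, 48 of them with a mouse name. Among miRNAs of at least 50 CPM in the higher tissue, the smallest unadjusted p for a stronger lowering of the testis in R were those of miR-133b-3p (NR -2.49, R -6.68, difference -4.19, SE 1.00, adjusted p = 0.245), miR-133a-3p and miR-378a-3p. For miR-133b-3p the testis had 3.47 and 26.7 CPM in NR and 0.55, 0.78 and 1.42 in R, all scaled in the joint fit. In the other direction they were those of miR-216a-5p (NR 1.35, R 2.96, difference 1.61, SE 0.57, adjusted p = 0.366), miR-181c-3p and miR-34a-5p. None of these 6 passed the adjustment. The single call was lost without CAPUT-NR 1, CAPUT-NR 3, CAUDA-R 2, CAUDA-R 3 or any one of CAPUT-R 1, 2 and 3; 9 were called without TESTIS-NR 1, 6 without TESTIS-NR 3, 4 without TESTIS-R 1, and 34 by DESeq2. Season and date of collection cannot be told apart, since each season was sampled at a single time.

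**Figure D5:**
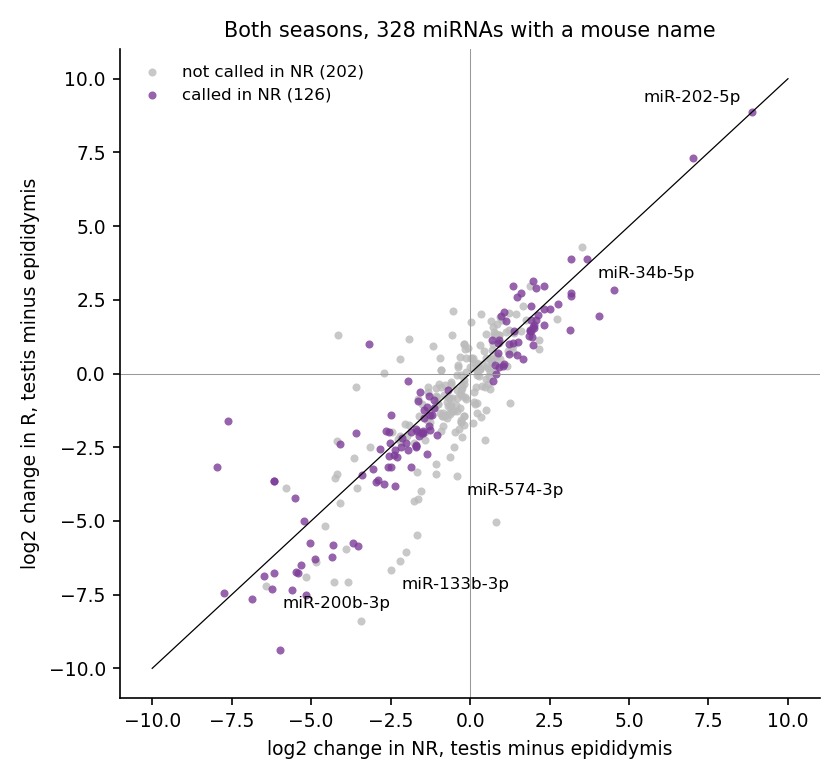
Log2 change of the testis from the epididymis in R (vertical axis) against that in NR (horizontal axis), both from the joint fit of 16 libraries, for 328 mouse-named miRNAs; purple points were called in NR and the line marks equal changes. Most called miRNAs lie near the line, 123 of 126 with the same sign in both seasons.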

How the data were processed

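Small RNA was read as single 50 nt reads in 18 samples of testis, caput and cauda. The authors deposited raw counts per miRNA entry, per the values, which are whole numbers with unequal column sums. The tools featureCounts and bedtools appear, with no role, in the submitters' processing notes. How entries were named, with which aligner and on which build, is not given in the sources used here. Both TESTIS-NR 2 and CAPUT-NR 2 matched the rounded mean of replicates 1 and 3, at 100% of entries with a group mean of at least 10 counts (2.50% or less in other columns), and were left out. Groups came from the sample titles. The labels call the replicates biological but do not say which samples share an animal.

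The deposited counts were tested with edgeR 4.0.16 in R 4.3.3 (filterByExpr, TMM, quasi-likelihood F-test, Benjamini-Hochberg) over 7 libraries with 3 tissue means and 4 residual degrees of freedom; the contrast was testis minus the mean of caput and cauda. Season was tested in 1 fit of 16 libraries, 784 entries. Scripts were tested on simulated data. The levels are CPM, and counting error limits the testis most, at 3548665 and 3914146 counts. Members, lists and tests were chosen with earlier results of these data known. Named miRNAs are the 5 highest in testis and in epididymis, the 12 largest non-overlapping called changes in each direction at 50 CPM or more, up to 4 of each list by p, and the 3 smallest interaction p in each direction, besides members that a family's count needs. Alternatives covered scaling, the count filter, DESeq2 1.42.0, a minimum change, 1 epididymal group, both seasons in 1 fit, averaged columns, a replicate block, merged entries, mouse names only and leaving out each library; leave-outs with the same 518 entries were chosen after seeing the data.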

Additional observations from a re-analysis of the deposited data

Results flagged for a closer look

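At 6 mouse-named miRNAs both testis libraries lay below both caput libraries and above all 3 cauda libraries, so that the change ran in opposite directions against the segments; none showed the reverse order, and the difference between the 2 changes was not tested. For miR-135a-5p the log2 change was -3.83 against the caput and 2.30 against the cauda, and for its relative miR-135a-2-3p it was -3.20 and 4.01; both arms passed the edgeR test in both comparisons. For miR-192-5p the changes were -2.91 and 1.74, with 393 and 183 CPM in the caput, 12.3 and 64.4 in the testis and 11.9, 10.8 and 11.8 in the cauda. For miR-181a-2-3p they were -0.79 and 1.85, for miR-99a-3p -0.92 and 0.88, and for miR-99b-5p -0.57 and 0.99. Of these 4, only the change of miR-181a-2-3p against the cauda passed (adjusted p = 0.0243).

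The change between testis and epididymis differed between the seasons at 1 entry without a mouse name, with a fitted difference of R minus NR of -12.46 on the log2 scale (SE 1.40, adjusted p = 0.0143). The entry was scarce: the NR testis libraries had 7.18 and 3.13 CPM, the NR caput 1.66 and 2.77, and all 3 NR cauda libraries 0, whereas the R testis libraries had 0 in all 3 and the R epididymal libraries 2.10 to 5.47. With groups at 0 the fitted value depends on the prior count and gives no bound. No group holds 4 or more measured libraries, so no library was tested for standing apart from its group.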

How the results depend on the processing

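The miRNA calls rest on 2 testis, 2 caput and 3 cauda libraries. The count of 172 called entries was the same with library totals or DESeq2 size factors in place of TMM and stayed within 1.5 times with DESeq2, 1 epididymal group, both seasons in 1 fit, merged entries and mouse names only. It became 98 without a filter on low counts, 74 against a log2 change of at least 1 and 283 with the averaged columns kept. For the caput the count of 101 became 46 without the filter, 57 against a log2 change of at least 1, 200 with DESeq2 and 246 with averaged columns. For the cauda the count of 161 became 86, 85 and 270 under the first, second and last of these. For the season difference the count of 1 became 34 with DESeq2, 6 with averaged columns and 4 with mouse names only. Leaving out 1 library at a time gave 0 to 196 calls against the epididymis, 0 to 143 against the caput, 0 to 185 against the cauda and 0 to 9 for the season difference. Without CAPUT-NR 1 or 3 only 3 and 0 entries were called against the epididymis, with 677 and 674 tested, and with the same 518 entries tested 68 and 53; the cause was not tested. With the same entries the ranges were 53 to 222, 0 to 185 and 0 to 216.

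With a replicate block edgeR called 0 entries in each of the 4 comparisons, with 190 (epididymis), 162 (caput), 182 (cauda) and 42 (season) at an unadjusted p under 0.05; the block leaves 2 residual degrees of freedom in NR. Whether same-numbered libraries share an animal is not known, and the numbers were not taken to pair them. The deviations of same-numbered libraries from their tissue means correlated at -0.01, 0.05, 0.07, 0.07, 0.11 and 0.13. Those of differently numbered libraries of different tissues correlated at -0.13 to 0.06. In testis and caput, with 2 libraries each, the deviations mirror each other. These values are thus not independent and cannot settle the pairing. None of the 83 called miRNAs followed changed sign under any alternative. Other called miRNAs were followed for this only in the leave-outs with the same 518 entries. Of the 83, 83 stayed called with DESeq2, 76 with library totals, 80 with DESeq2 size factors, 56 without the filter and 36 against a log2 change of at least 1. The median of the miR-99, miR-100 and miR-125 list was -0.12 and became 0.06 with library totals. The testis libraries are the shallowest, and what their depth limits was not tested.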
